A study of Mus musculus with 6 samples.

Results

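The genes described here encode 9 channel proteins of the heart: the potassium channel genes Kcnd2, Kcnip2, Kcnq1, Kcnh2, Kcnj2, Kcnj11 and Kcnk3, the pacemaker channel gene Hcn4 and the gap junction gene Gja1. They were picked by symbol from 19505 genes on the array. All 9 were on it, each with 1 probe set. None of the 9 encodes a voltage-gated sodium channel, although Hcn4 channels pass sodium together with potassium. RNA was measured on 6 Affymetrix arrays of cultured mouse heart cells, 1 array per group. Cardiomyocytes (CM), the contractile cells, and cardiac fibroblasts (CF), the matrix-producing cells, were each kept for 48 h with secretome from Ccrl2+ macrophages, with secretome from Ccrl2- macrophages or with phosphate-buffered saline (PBS, Sham in the titles). Ccrl2 is a chemokine-receptor-like surface protein. The labels give C57BL/6N as the genotype and 15 to 16 weeks as the age of the mice. Both kinds of macrophage came by cell sorting out of 1 pool of 6 wild-type hearts taken 1 week after TAC (transverse aortic constriction), the surgical narrowing of the aorta that loads the left ventricle with pressure. The treatment protocol describes macrophages in co-culture, but the source labels name their secretome, and the groups follow the source labels. Since each group is a single array, no difference could be checked against replicates or tested, and the array number sets the limit of precision.

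Cardiomyocytes repolarise through potassium channels that open in sequence. Kv4 channels carry the fast transient outward current, ERG and KvLQT1 channels carry delayed rectifier currents, and Kir channels hold the resting potential. This is a general outline, and the arrays of these mouse cells measured RNA and no current. HCN channels carry the inward pacemaker current of the sinoatrial node, and connexins join neighbouring cells so that the impulse passes from cell to cell. Loss of repolarising potassium channels and of connexin 43 is a known feature of the failing heart, and connexin 43 is also made by cardiac fibroblasts.

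Promoters are shown for the pair of genes that passed the 95th percentile of the array's negative controls, Gja1 and Kcnh2. RefSeq (GRCm38.p6) gave a promoter window, from 250 bases before to 50 bases after the gene start, for 6 of the 9 genes: Kcnip2, Kcnd2, Kcnj2, Kcnh2, Hcn4 and Gja1. Both strands were searched for 5 motifs: the AP-1 motif with the letters TGANTCA, the GC box with the letters GGGCGG, the TATA box with the letters TATAAA, the motif of GATA factors with the letters AGATAA and the motif of T-box factors with the letters GGTGTGA. The matches are in capitals, none overlaps another, and a match describes letters and not a bound site. The Gja1 window lies at chr10:56377050-56377349 on the + strand, and the Kcnh2 window at chr5:24329542-24329841 on the - strand.
Gja1: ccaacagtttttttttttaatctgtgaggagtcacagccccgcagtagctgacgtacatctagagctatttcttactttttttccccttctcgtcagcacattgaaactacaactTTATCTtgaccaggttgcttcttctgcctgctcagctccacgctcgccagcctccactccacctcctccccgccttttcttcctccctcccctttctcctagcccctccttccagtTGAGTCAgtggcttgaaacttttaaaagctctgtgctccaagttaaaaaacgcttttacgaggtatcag
Kcnh2: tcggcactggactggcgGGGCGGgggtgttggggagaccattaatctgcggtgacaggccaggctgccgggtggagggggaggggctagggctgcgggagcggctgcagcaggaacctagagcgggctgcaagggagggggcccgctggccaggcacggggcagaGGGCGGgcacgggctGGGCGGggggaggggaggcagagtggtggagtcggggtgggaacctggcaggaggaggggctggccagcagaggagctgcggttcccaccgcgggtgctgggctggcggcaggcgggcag
The Gja1 window held 1 AP-1 match at position -19 from the gene start and 1 GATA match at -135 on the opposite strand. An AP-1 match was present in 7.93% of all 27025 promoter windows and a GATA match in 11.4%. The Kcnh2 window held 3 GC boxes, at -233, -85 and -70. A GC box was found in 5 of the 6 windows, all but that of Gja1, and in 35.9% of all windows. The Gja1 window was 47.7% G and C, near the median of 52.7% over all windows, while the Kcnh2 window was 74.3% and the 4 other windows were 66.7% to 71.7%. No TATA box or T-box letters were in any of the 6.

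Values are log2 probe set levels, so a difference of 1 is 2-fold. A difference was counted when the higher level reached a floor of 6.55, which is the median over every named probe set, and the difference reached 2-fold. Shares of genes counted in a comparison are over the genes past the floor. Counts of the 9 genes and of related lists are over the whole list, and a gene under the floor on both arrays cannot be counted. Where the lower level lay under the floor, the distance from the higher level to the floor is a lower bound. The array's 5222 negative control probe sets had medians of 6.2 to 6.71 and 95th percentiles of 10.2 to 10.7 on the 6 arrays. Levels of different genes are not set against each other, since probe sets differ in response. Of the 9 genes, 5 reached the floor on at least 1 array, against 55.3% of all genes. Only Gja1 and Kcnh2, 2 of the 9, passed the controls' 95th percentile on any array, against 28.5% of all genes. The values of the other 7 thus lie within the range of signal that probes without a target gave. The cultures differed in the direction of their labels: with PBS, all 12 cardiomyocyte markers were at least 2-fold higher in CM than in CF (medians 16.3 and 7.75), and all 9 fibroblast markers on the array were lower (medians 10.1 and 16.6). The CM culture also carried endothelial transcripts, 8 of 9 markers at least 2-fold higher than in CF (medians 12.7 and 8.31). Neither culture was free of other cell types' transcripts. Tnnt2, a cardiomyocyte marker, lay at 16.12 in CF, and Dcn, a fibroblast marker, at 15.34 in CM, both above the controls' 95th percentile. Macrophage markers had medians of 11.1 in CM and 11.2 in CF.

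Gja1 encodes connexin 43, the main connexin of ventricular muscle. In CM its log2 level was 16.2 with the Ccrl2+ secretome, 15.96 with the Ccrl2- secretome and 16.28 in PBS. In CF the level was 11.42 with the Ccrl2+ secretome, 13.99 with the Ccrl2- secretome and 11.69 in PBS. Gja1 was thus high on all 3 CM arrays, and the CF arrays lay apart from them, with the Ccrl2- array the highest of the 3. It lay above at least 96.7% of the negative controls on every array.

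Kcnh2 encodes ERG1, the pore of the rapid delayed rectifier. Its log2 level in CM was 13.05 with the Ccrl2+ secretome, 12.67 with the Ccrl2- secretome and 13.18 in PBS. In CF it was 5.8 with the Ccrl2+ secretome, 6.31 with the Ccrl2- secretome and 6.95 in PBS. The CM arrays lay above 98.6% to 98.8% of the negative controls, and the CF arrays in the middle of them, above 35.5% to 54.7%.

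Kcnq1 encodes KvLQT1, the pore of the slow delayed rectifier. Its log2 level in CM was 8.84 with the Ccrl2+ secretome, 8.64 with the Ccrl2- secretome and 8.62 in PBS, while in CF it was 4.43 with the Ccrl2+ secretome, 4.31 with the Ccrl2- secretome and 4.3 in PBS. Each cell type held a narrow range, 0.22 over the CM arrays and 0.13 over the CF arrays. The CM levels lay above 85.6% to 87.5% of the negative controls and the CF levels above 13.1% to 15.7%. The antisense transcript Kcnq1ot1 overlaps Kcnq1, and which bases the probes cover is not given in the sources used here.

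Kcnd2 encodes Kv4.2, a pore of the transient outward channel, and Kcnip2 encodes KChIP2, the subunit that carries Kv4 channels to the membrane. Kcnip2 had log2 levels in CM of 7.3 with the Ccrl2+ secretome, 6.09 with the Ccrl2- secretome and 6.88 in PBS. In CF it had 3.8 with the Ccrl2+ secretome, 4.03 with the Ccrl2- secretome and 3.4 in PBS. Only the CM arrays with the Ccrl2+ secretome and with PBS reached the floor, at 69% and 61.1% of the negative controls. Kcnd2 stayed under the floor on all 6 arrays, at 4.99 to 5.31 in CM and 3.65 to 4.24 in CF.

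The inward rectifier genes were also under the floor on all 6 arrays. Kcnj2, which encodes Kir2.1 of the resting potassium current, lay at 5.42 to 5.97 in CM and 4.14 to 5.32 in CF. Kcnj11 encodes Kir6.2, the pore of the ATP-sensitive channel. It lay at 5.69 with the Ccrl2+ secretome, 5.84 with the Ccrl2- secretome and 6.49 in PBS in CM, and at 3.26 to 3.36 in CF.

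Kcnk3 encodes TASK-1, an acid-sensitive background channel with a pair of pore domains in each subunit. It lay at 6.56 with the Ccrl2+ secretome in CM, just at the floor, at 6.3 with the Ccrl2- secretome and at 5.82 in PBS, and at 5.16 to 5.41 in CF. Hcn4, the main pacemaker channel of the sinoatrial node, lay at 5.5 to 5.89 in CM and 4.47 to 5.02 in CF, under the floor throughout. At these levels an absence of expression and a dim probe set cannot be told apart.

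**Figure D1:**
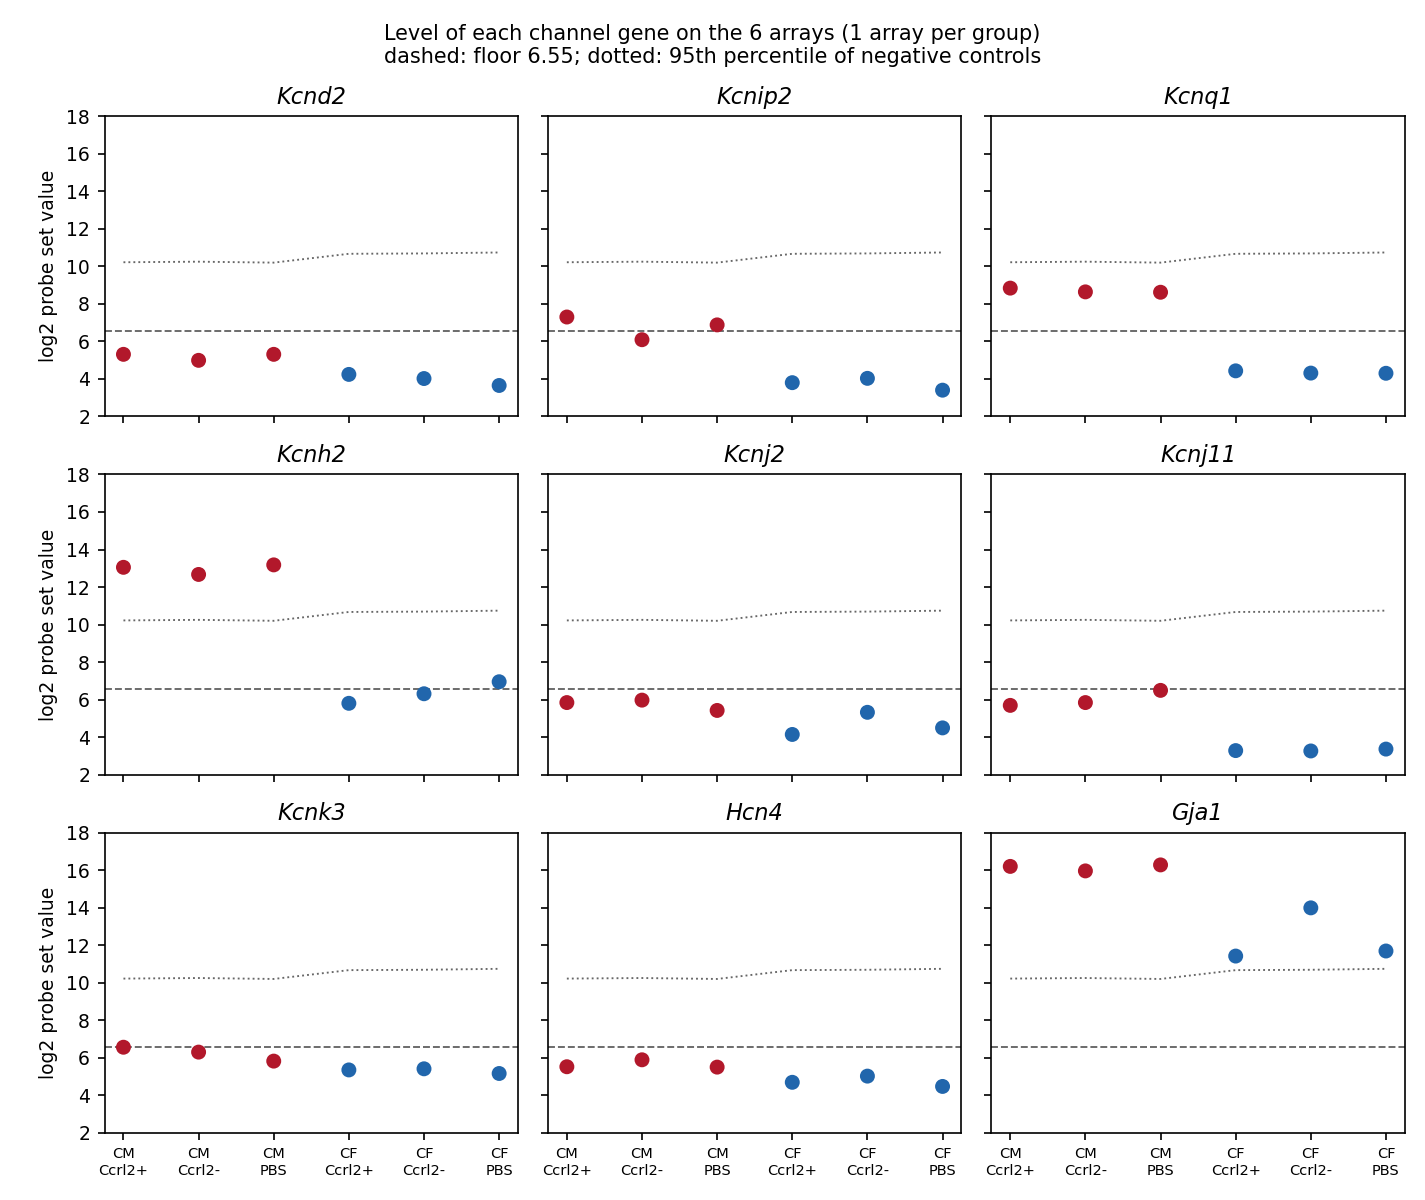
Each panel shows the log2 probe set value (y axis) of 1 gene on the 6 arrays (x axis), CM in red and CF in blue, 1 point per array, with the floor of 6.55 dashed and the 95th percentile of each array's negative controls dotted. Gja1 lies above the dotted line on all 6 arrays and Kcnh2 on the 3 CM arrays, while the other 7 genes lie under it.

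All 9 genes were higher on every CM array than on every CF array. Of all 19505 genes 19.9% had that pattern, and of the 8726 genes under the floor on every array 9.24% did, while 4 of the 9 genes are of that kind. The gap between the lowest CM and the highest CF level was 5.72 for Kcnh2, 4.19 for Kcnq1, 2.33 for Kcnj11, 2.06 for Kcnip2 and 1.97 for Gja1. It was 0.75 for Kcnd2, 0.48 for Hcn4, 0.41 for Kcnk3 and 0.1 for Kcnj2, so the last 4 separated by less than 2-fold. The 3 arrays of a cell type differ in treatment and are not replicates.

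In PBS, 4 of the 9 genes were at least 2-fold higher in CM than in CF and 0 lower, where 16.9% of the 10394 genes past the floor were higher and 13.9% lower. Gja1 was 24.1-fold higher (log2 difference 4.59). Kcnh2 differed by 6.23 as measured, but its CF level of 6.95 lay within the range of the negative controls, above 54.7% of them, so no exact fold is given. Kcnq1 was at least 4.2-fold higher against the floor (log2 difference 4.32 as measured). Both Kcnq1 levels lay within the range of the negative controls. Kcnip2 was at least 1.26-fold higher (3.48 as measured), under 2-fold by that bound, and with values under the floor raised to it 3 of the 9 genes were counted: Kcnq1, Kcnh2 and Gja1. The median log2 difference of the 9 genes was 3.13, against -0.01 over all genes, and it was 0 with values under the floor raised to it. Of the negative controls past the floor 30.6% also differed by 2-fold, most of them lower in CM (747, against 141 higher), yet 0 were as far apart as Kcnh2 or Gja1 in their direction.

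With the secretomes the cell types were compared on other arrays. With the Ccrl2+ secretome Kcnh2 was at least 90.5-fold higher in CM than in CF, Gja1 27.5-fold, Kcnq1 at least 4.89-fold and Kcnip2 at least 1.68-fold, under 2-fold by that bound. Kcnk3 was counted too (log2 difference 1.21), but its CM level was only 0.01 above the floor. Thus 5 of the 9 genes were counted as higher and 0 as lower, where 17.6% of the 10336 genes past the floor were higher and 13.4% lower. With the Ccrl2- secretome Kcnh2 was at least 69.6-fold and Kcnq1 at least 4.26-fold higher in CM, while Gja1 was 3.92-fold higher. That made 3 of the 9 genes higher and 0 lower, where 15.7% of the 10389 genes past the floor were higher and 12.3% lower. With both secretomes the Kcnq1 levels lay within the range of the negative controls. So did the CF levels of Kcnh2, 5.8 with Ccrl2+ and 6.31 with Ccrl2-. The bounds of both genes are therefore against the floor only, and no exact fold is given for Kcnh2. The floor itself lay under the control medians of these CF arrays (6.59 with Ccrl2+ and 6.71 with Ccrl2-). A larger Kcnh2 difference with the secretomes than in PBS cannot be read from these bounds. The difference of Gja1 between the cell types was 1.97 log2 units with the Ccrl2- secretome, against 4.78 with the Ccrl2+ secretome and 4.59 in PBS. With the Ccrl2+ secretome 2 negative controls past the floor were as far apart as Gja1 in its direction, and 0 as Kcnh2. With the Ccrl2- secretome 23 controls (0.797%) were as far apart as Gja1, and 1 as Kcnh2.

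The endothelial markers given above were higher in CM in the same comparisons, in 9 of 9 with the Ccrl2+ secretome and 8 of 9 with the Ccrl2- secretome, and their part in the channel differences was not tested. In PBS the smooth muscle and pericyte markers were higher in 4 of 10 and lower in 3, the epicardial and mesothelial markers lower in 5 of 8, and the macrophage markers lower in 1 of 9. In cultures of mixed cells, fewer cells of a type and less RNA per cell cannot be told apart.

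Partner genes of the same channels differed between the cell types in PBS in both directions. Of 12 other potassium channel auxiliary genes on the array, 1 was at least 2-fold higher in CM and 2 lower. The higher one was Kcne1, the partner of KvLQT1 in the slow delayed rectifier (9.85 in CM against 4.36 in CF). The lower ones were Kcne4, a partner that inhibits KvLQT1 (4.37 against 13.13), and Kcnab1, a cytoplasmic beta subunit of Kv1 channels (10.4 against 12.48). Of 11 other inward rectifier and ATP-sensitive channel genes 5 were higher and 1 lower. The lower one, Kcnj15 (5.09 against 6.68), stood only 0.13 above the floor in CF, under 2-fold by that bound. The higher ones include Abcc9 (11.43 against 5.79) and Abcc8 (8.76 against 4.91), the sulfonylurea receptors that join Kir6 pores, and Kcnj3, a pore of the acetylcholine-gated channel (11.14 against 3.94). None of the 16 other voltage-gated pore genes reached the floor, and of 11 other Kcnk genes 0 were counted. Of 9 genes of the calcium-activated list 1 was higher, Kcnmb1 (11.65 against 9.93), and 1 lower, Kcnt2 (8.13 against 12.32), which encodes a sodium-activated pore.

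The neighbours of Hcn4 and Gja1 behaved unevenly in the same comparison. Of 9 other HCN and pacemaker genes, Tbx3 was higher in CM (6.72 against 4.97) and Tbx18 lower (9.43 against 11.71). The CM level of Tbx3 stood only 0.17 above the floor, so it was at least 1.13-fold higher, under 2-fold by that bound. Of 17 other connexin and pannexin genes 2 were higher, Gja5, the connexin 40 of atria, conduction fibres and arterial endothelium (9.66 against 4.79), and Gja3 (7.6 against 3.62), and 1, Panx1, was lower (7.52 against 8.7). Of 14 intercalated disc and scaffold genes 8 were higher, such as Xirp1 (10.54 against 4.47), and 1 lower. Sodium channel partners and sodium pump genes were higher in 3 of 8, the channel-binding factors Fgf12 (10.93 against 5.83) and Fgf13 (8.09 against 4.37) and the pump regulator Fxyd1 (13.53 against 7.94). The median log2 differences of these lists ran from -0.16 for the auxiliary genes to 1.67 for the disc genes.

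**Figure D2:**
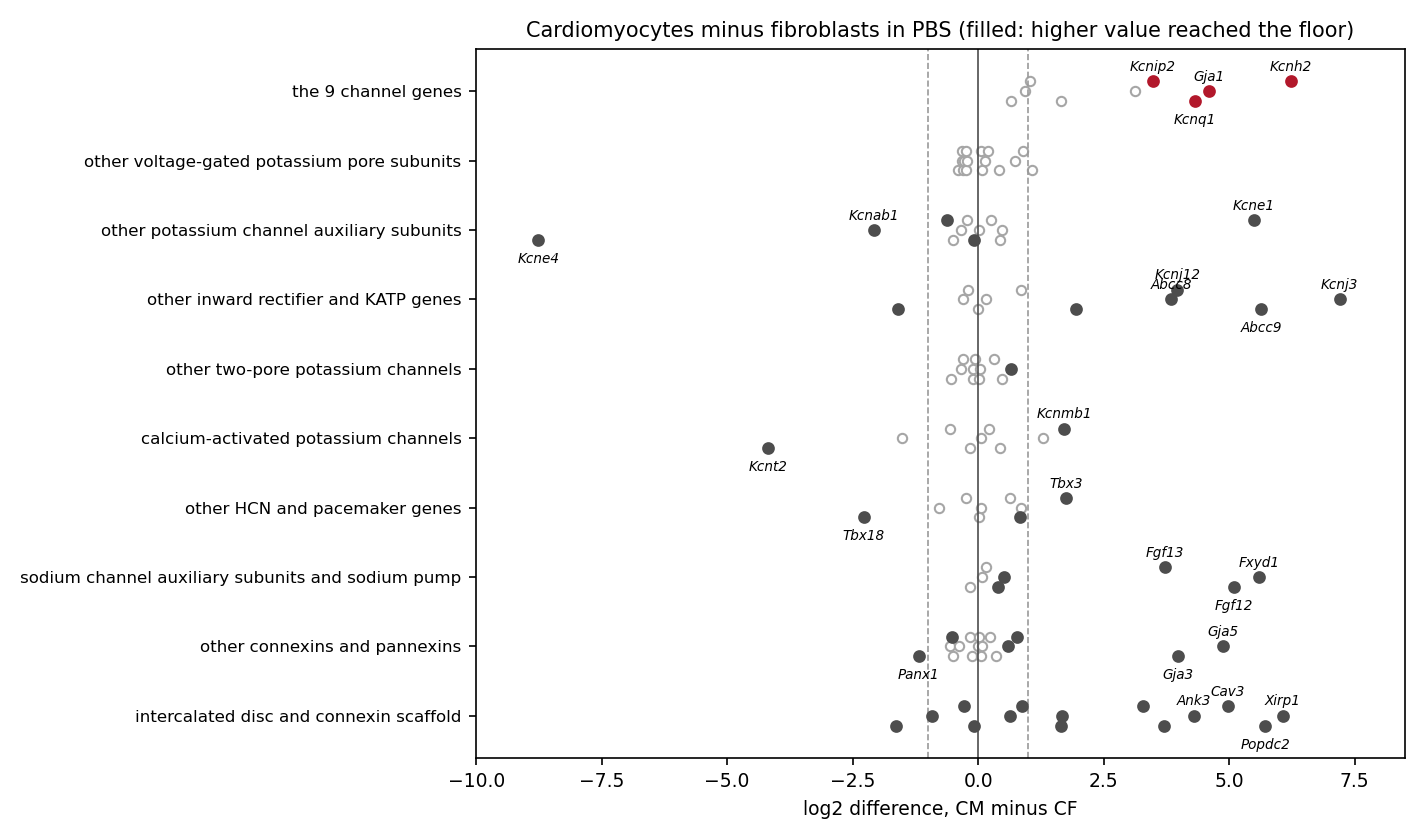
The x axis is the log2 difference CM minus CF in PBS, each point 1 gene, the 9 channel genes in red in the top row and related genes by list below, with filled points where the higher value reached the floor. The 4 filled channel genes lie between 3.48 and 6.23, while Kcne4 and Kcnt2 lie far to the left at -8.76 and -4.19.

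In fibroblasts the Ccrl2- secretome array had 1 of the 9 genes at least 2-fold higher than PBS and 0 lower, where 6.18% of the 10057 genes past the floor were higher and 4.83% lower. That gene was Gja1, at 13.99 against 11.69, 4.92-fold higher (log2 difference 2.3), rank 251 from the top. Of the 2995 negative controls past the floor 28 were raised as much or more, which is 0.935%. Among probe sets whose higher value reached 10.74, it was 2.98% of controls and 3.52% of genes. Kcnh2 was lower by less than 2-fold, at 6.31 against 6.95. The other 7 genes lay under the floor on both arrays, with differences from -0.1 (Kcnj11) to 0.83 (Kcnj2), and the median of all 9 was 0.37, against -0.04 over all genes. That median is the value of Kcnd2, which lay under the floor on both arrays (4.02 against 3.65), and it was 0 with values under the floor raised to it.

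Marker lists also differed between these arrays. Macrophage markers were at least 2-fold higher in 2 of 9 and lower in 6 of 9, with median levels of 9.98 with the Ccrl2- secretome and 11.2 in PBS. Cardiomyocyte markers were higher in 0 and lower in 2 of 12 (medians 7.47 and 7.75), fibroblast markers lower in 2 of 9 (16.4 and 16.6), smooth muscle and pericyte markers lower in 2 of 10 (7.27 and 8.82), and endothelial markers higher in 1 of 9 (8.03 and 8.31). None of the epicardial, neuronal and Schwann cell markers was counted. The markers that were higher, in the direction of Gja1, were the macrophage genes Lyz2 (13.84 against 12.52) and Adgre1 (10.45 against 9.24) and the endothelial gene Flt1 (10.79 against 9.59), named after their values were seen. Opposite to Gja1, the 6 lower macrophage markers were C1qa, C1qb, C1qc, Mertk, Mrc1 and Csf1r, with log2 differences from -1.8 (C1qa) to -1.1 (Csf1r). The part of these cell types in the Gja1 difference was not tested.

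Gja1 was the only connexin counted on that array. Of the 17 other connexin and pannexin genes 0 were at least 2-fold apart from PBS, and Gjc1, the connexin 45 gene, lay at 10.29 against 9.8. Of 14 disc and scaffold genes 2 were lower, Jup, the plakoglobin gene of desmosomes (12.65 against 14.36), and Popdc2 (9.65 against 11.15). Among the potassium channel lists Kcnq5, a pore gene of the M-type current in neurons, was higher, at 8.1 against 5.31. Lower were Kcne4 (11.54 against 13.13), Kcnab1 (11.21 against 12.48), Kcnj5 (8.37 against 9.62), Kcnk6 (6.92 against 7.99) and Kcnt2 (11.12 against 12.32).

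**Figure D3:**
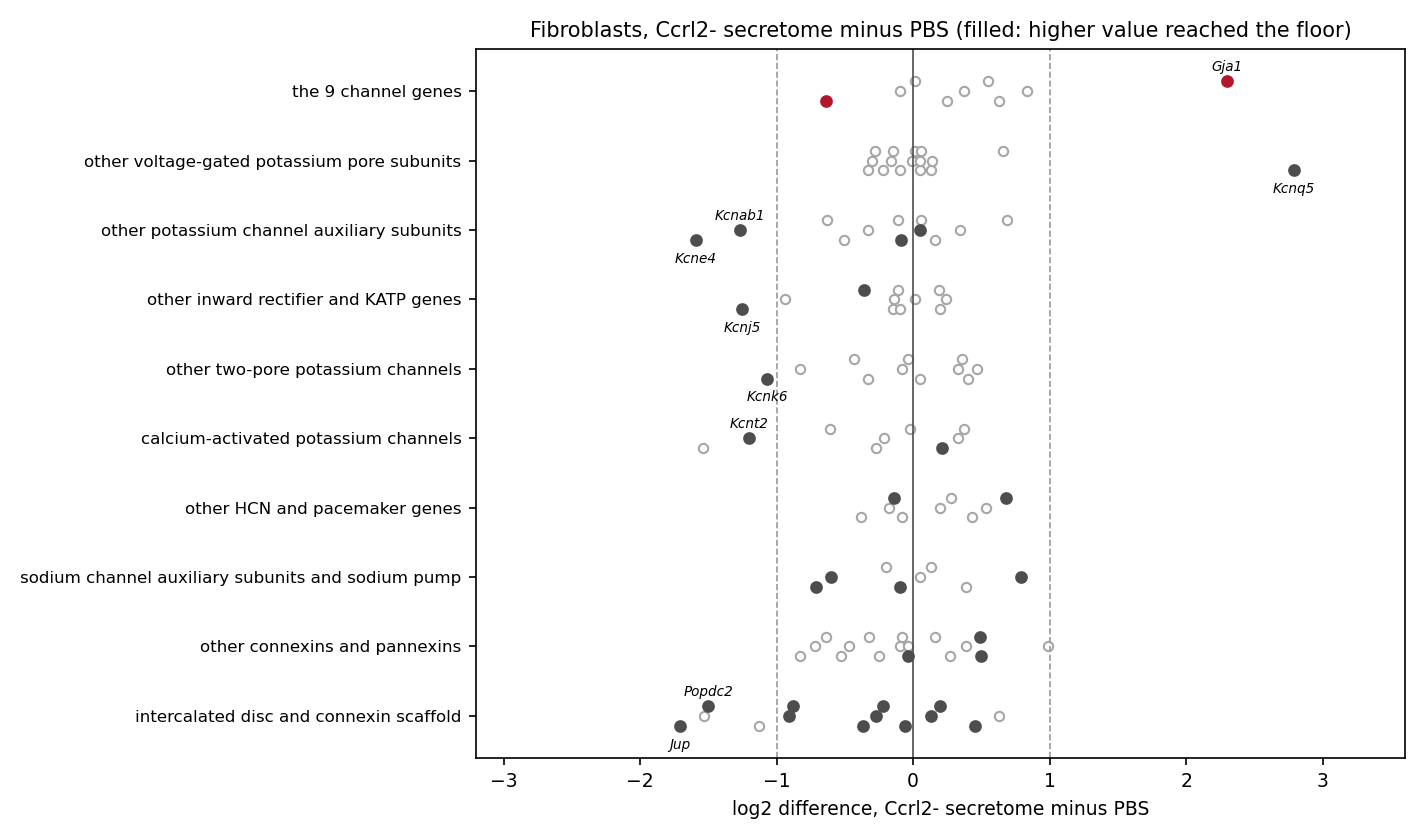
The x axis is the log2 difference Ccrl2- secretome minus PBS in fibroblasts, each point 1 gene, the 9 channel genes in red in the top row and related genes by list below, filled where the higher value reached the floor. Gja1 at 2.3 and Kcnq5 at 2.79 are the only filled points to the right of the 2-fold line.

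On the fibroblast array with the Ccrl2+ secretome Gja1 lay at 11.42 against 11.69 in PBS (log2 difference -0.27). Of the 9 genes 1 was lower by at least 2-fold and 0 higher, where 6.13% and 4.87% of the 10042 genes past the floor were. It was Kcnh2, at 5.8 against 6.95, but its PBS level stood only 0.4 above the floor, so it was at least 1.32-fold lower and under 2-fold by that bound. Of the negative controls past the floor 8.22% were lowered as much or more. On this array 4 of 12 cardiomyocyte, 2 of 9 macrophage and 2 of 8 epicardial markers were at least 2-fold higher than in PBS and 0 lower. Lower were 2 of 9 fibroblast markers, 3 of 10 smooth muscle and pericyte markers, 1 of 9 endothelial markers and 1 of 5 neuronal and Schwann cell markers, with 0 higher in these lists. Both comparisons with PBS share the PBS array.

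Set directly against each other, the fibroblast arrays differed in Gja1, at 11.42 with the Ccrl2+ secretome against 13.99 with the Ccrl2- secretome. It was 5.94-fold lower with Ccrl2+ (log2 difference -2.57), rank 212 from the lowest of 10144 genes, where 10.1% of genes were at least 2-fold lower and 8.55% higher. The controls lowered as much were 1.2% of those past the floor. Among probe sets whose higher value reached 10.74, it was 4.01% of controls and 2.75% of genes. Kcnj2 differed by -1.18 (4.14 against 5.32), both levels under the floor and so not counted. Gjc1 (8.76 against 10.29) and Panx1 (8.12 against 9.2) were lower with Ccrl2+ as well, 2 of the 17 other connexin and pannexin genes, with 0 higher. Cardiomyocyte markers were at least 2-fold higher with Ccrl2+ in 8 of 12, macrophage markers in 5 of 9, epicardial markers in 4 of 8, and 1 marker each of the fibroblast, endothelial and neuronal lists. Lower with Ccrl2+, like Gja1, were 1 macrophage marker, Adgre1 (9.41 against 10.45), 1 endothelial marker, Flt1 (9.41 against 10.79), and 1 neuronal marker, Tubb3 (8.28 against 9.85), named after their values were seen. In the same lists 5 macrophage, 1 endothelial and 1 neuronal marker were higher, opposite to Gja1. The part of these cell types was not tested here either.

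In cardiomyocytes neither secretome array differed from PBS by 2-fold in any of the 9 genes. By that rule 0.839% of 10009 genes differed with the Ccrl2+ secretome and 1.53% of 10054 genes with the Ccrl2- secretome. Gja1 differed by -0.08 with Ccrl2+ and by -0.32 with Ccrl2-, and Kcnh2 by -0.13 and by -0.51. Kcnq1 differed by 0.22 with Ccrl2+ and by 0.02 with Ccrl2-. Kcnip2 was 0.42 higher with Ccrl2+ and 0.79 lower with Ccrl2- than in PBS, where the Ccrl2- level lay under the floor. Kcnk3 was 0.74 higher with Ccrl2+, at the floor. Kcnj11, under the floor, differed by -0.8 and by -0.65. The negative controls past the floor spread more widely, 12.9% at 2-fold with Ccrl2+ and 17.7% with Ccrl2-. Marker lists also differed from PBS. With Ccrl2+ 5 of 9 macrophage markers were at least 2-fold lower and 0 higher. With Ccrl2- 4 of 9 fibroblast, 1 of 10 smooth muscle and pericyte and 1 of 8 epicardial markers were higher and 0 lower. Of the 12 cardiomyocyte markers 0 were counted on either array. The part of these cell types in the channel values was not tested.

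Between the secretomes in cardiomyocytes 1 of the 9 genes was counted, Kcnip2, at 7.3 with Ccrl2+ against 6.09 with Ccrl2-. The measured log2 difference was 1.21, and of 9995 genes 0.13% reached 2-fold upward and 0.18% downward. The levels lay above 69% and 47.6% of the negative controls, within their range. Against the floor Kcnip2 was at least 1.68-fold higher, under 2-fold by that bound, and 6.31% of the negative controls past the floor were raised as much or more. Its Kv4 partner gene Kcnd2 lay at 5.31 against 4.99, under the floor. Gja1 (16.2 against 15.96), Kcnh2 (13.05 against 12.67) and Kcnq1 (8.84 against 8.64) differed by at most 1.3-fold between the pair of arrays. All 12 cardiomyocyte markers were within 2-fold, and 2 of 9 fibroblast markers were at least 2-fold lower with Ccrl2+.

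**Figure D4:**
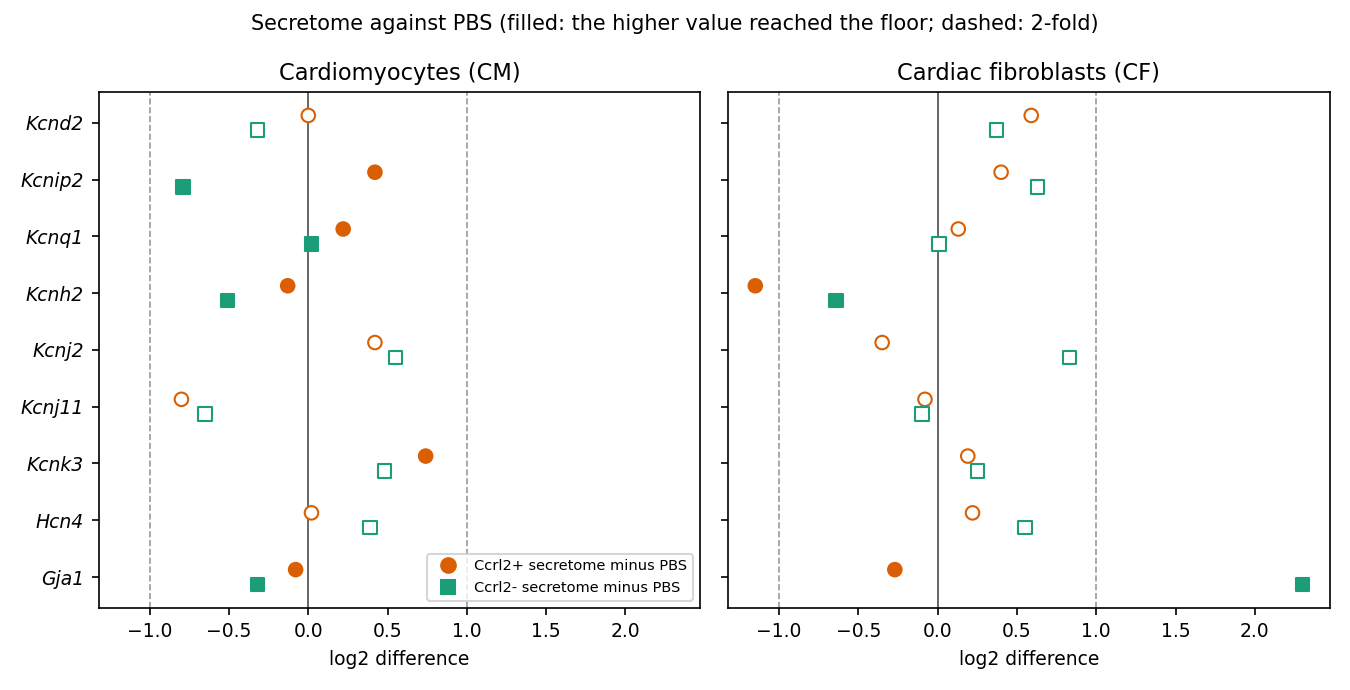
The x axis is the log2 difference of each secretome array from PBS in CM (left) and CF (right), the y axis the 9 genes, with circles for Ccrl2+ and squares for Ccrl2-, filled where the higher value reached the floor and with 2-fold dashed. In CM no point reaches 2-fold, and in CF Gja1 with Ccrl2- lies at 2.3 and Kcnh2 with Ccrl2+ at -1.15.

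The genes with the closest profiles over the 6 arrays were sought by the root mean square difference of log2 values after subtracting each gene's mean, among 10779 genes that reached the floor on at least 1 array. Only Gja1, Kcnh2 and Kcnq1 reached the floor on all arrays of a cell type and varied enough to be used. Nearest to Gja1 were Pgf, the placental growth factor gene (0.38), Tnfrsf26, a gene of the TNF receptor family (0.43), and Clu, the clusterin gene (0.44). Clu lay at 15.02 in CF with the Ccrl2- secretome, against 13.07 with the Ccrl2+ secretome and 13.52 in PBS. Nearest to Kcnh2 were Rbm20, a splicing regulator of titin (0.20), and the sarcomere genes Nrap (0.27) and Lmod2 (0.28). Nearest to Kcnq1 were Gata2, a transcription factor of endothelial and blood cells (0.11), Cspg4, the NG2 proteoglycan gene of pericytes (0.11), and Ank3, the ankyrin-G gene (0.15). All Kcnq1 levels lay within the range of the negative controls. In CF the levels of Kcnq1 (4.3 to 4.43) and of Gata2 (5.18 to 5.33) were under the floor. Their likeness there is between values under the floor, and the cell type behind these transcripts was not tested. These are descriptions over 6 arrays that share 2 cell types.

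**Figure D5:**
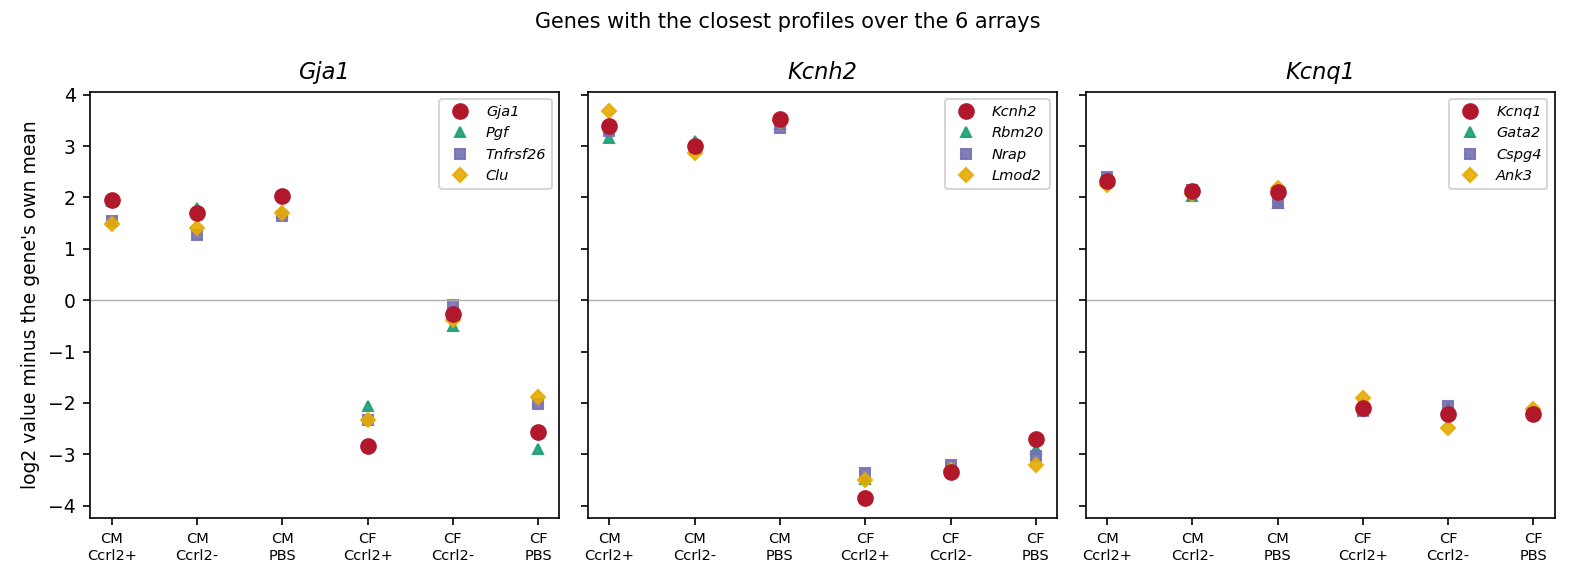
Each panel shows the log2 value minus the gene's own mean (y axis) on the 6 arrays (x axis) for 1 channel gene in red and the 3 genes nearest to it. For Gja1 the CF array with the Ccrl2- secretome stands above the other CF arrays in all 4 genes. For Kcnh2 and Kcnq1 the points fall into a CM and a CF level. The nearest genes were picked by their likeness to the channel gene, so a shared pattern within a panel follows from that choice.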

How the data were processed

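Biotin-labelled RNA, from 1 to 8 ug of total RNA, was hybridised to Affymetrix arrays, per the labels' protocols. The submitters' processing notes name Affymetrix Expression Console as the tool behind the deposited log2 values, 1 per probe set, with no version, and no sources used here state its settings. The log2 scale was read from the values. The sorted values of the 6 arrays differed by 0.0902 on average (largest gap 0.3), so the arrays had nearly one distribution and a shift of most genes would not show.

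The platform annotation named 19572 of 28846 probe sets, and for 55 symbols with several the one with the highest mean was kept. Differences are subtractions of log2 values of 2 arrays, with no p-value. The calling step was tested on simulated data. Every one of the 9 genes is named. Of each related list up to 4 genes with the largest difference past the floor were eligible, and for likeness the 3 nearest genes. The members and lists were chosen with earlier results of these data known. Alternatives were thresholds of 1.5- and 3-fold, other floors, quantile normalization, a loess trend (span 0.4) and the mean of probe sets. Python 3.11.15, numpy 2.4.6, pandas 2.3.3, statsmodels 0.14.6 and matplotlib 3.10.9 were used.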

Additional observations from a re-analysis of the deposited data

How the results depend on the processing

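The counts of the 9 genes called depended mainly on the floor, since most of them lay near or under it. For CM over CF the counts were 4 in PBS, 5 with the Ccrl2+ secretome and 3 with the Ccrl2- secretome. They were 7, 8 and 5 with no floor. With a floor of 10.14 (75th percentile of named values) or 10.74 (highest 95th percentile of negative controls) they were 2 in each of the 3 comparisons, namely Kcnh2 and Gja1. Raising values under the floor to it, chosen after seeing the data, gave 3 in each of the 3 comparisons. It also took the median difference of the 9 genes to between 0 and 0.01 in all 9 comparisons, against 3.13, 2.41 and 1.97 as measured for CM over CF in PBS, with Ccrl2+ and with Ccrl2-. In CF the 1 gene called with Ccrl2+ over PBS became 0 at 3-fold, with either higher floor and with raised values, the 1 with Ccrl2- over PBS became 2 at 1.5-fold, and the 1 for Ccrl2+ over Ccrl2- became 2 with no floor. In CM the 0 called over PBS became 1 with each secretome at 1.5-fold, and the 1 for Ccrl2+ over Ccrl2- became 0 at 3-fold, with either higher floor and with raised values. Quantile normalization and the loess trend left every count within 1.5 times, and no called difference changed sign under either. Of the 81 differences 6 moved by more than 0.237, the robust spread between the CM secretome arrays, all under the loess trend. The mean of probe sets could not change any count or difference, since each of the 9 genes has 1 probe set. No paired analysis was possible because each group has 1 array, and for the same reason no array could be left out. Depth is not defined for arrays, and signal near the negative controls limits 7 of the 9 genes.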

Other observations

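Sgk1, the kinase that keeps several channels at the membrane, was the gene of the channel control list with the largest secretome difference in fibroblasts. Its log2 level there was 13.68 with the Ccrl2+ secretome, against 10.07 with the Ccrl2- secretome and 9.49 in PBS. In cardiomyocytes it lay at 14.79 with the Ccrl2+ secretome, 14.28 with the Ccrl2- secretome and 15.08 in PBS. Of 12 other potassium channel auxiliary genes 2 were at least 2-fold higher on the fibroblast array with Ccrl2+ than on that with Ccrl2-, and 0 lower. They were Kcnab1, at 13.45 with the Ccrl2+ secretome against 11.21 with the Ccrl2- secretome, and Kcne4, at 12.63 against 11.54. Of 11 other inward rectifier and ATP-sensitive channel genes 2 were higher in the same comparison and 0 lower. Kcnj15 lay at 8.6 with the Ccrl2+ secretome against 6.32, under the floor, with the Ccrl2- secretome. Kcnj5 lay at 10.13 against 8.37. Over all genes past the floor 8.55% were higher and 10.1% lower. In cardiomyocytes the related genes counted against PBS were Kcnmb1, a beta subunit of the large-conductance calcium-activated channel, at 12.78 with the Ccrl2- secretome against 11.65 in PBS, and Gja3 at 6.35 with the Ccrl2+ secretome against 7.6 in PBS. Each of these values rests on 1 array per group.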
